A study of Mus musculus with 60 samples.

Results

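The genes described here are the translation initiation and elongation factors of the mouse, taken as every protein-coding row of the deposited expression table whose symbol begins with Eif1 to Eif6 or with Eef1 or Eef2. The rule found 87 of the 55414 genes in the table. It used gene names and no measured value. It takes in the subunits of the initiation and elongation factors, and also the kinases, binding proteins and methyltransferases named after them. The tissue was mPFC, the medial prefrontal cortex, of DBA2/J strain mice that expressed GFP-L10a, a ribosomal protein joined to green fluorescent protein. A library was either IP, made from RNA pulled down with an antibody against GFP and labelled as aPVT projector cells, or Input, made from bulk tissue with no antibody. The design text states that DBA mice went through social defeat for 5 days. The groups carry the labels SA, SA:ANH, ANH, RES and NS, with 6 libraries each in IP and 6 in Input, 60 in all. The sources used here do not spell out these labels, do not say which groups were defeated, do not name the promoter or virus that delivered GFP-L10a, and do not say whether 1 group's libraries are from different mice. The p-values below therefore measure the spread between libraries, which may be technical. NS is used as the reference because the other labels are given as subtypes.

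Translation begins when the initiator tRNA, carried by eIF2, is placed on the small ribosomal subunit together with eIF1, eIF1A, eIF3 and eIF5, and when eIF4F (the cap-binding eIF4E, the scaffold eIF4G and the helicase eIF4A) brings a messenger RNA to it. Peptides are then lengthened by eEF1A, which delivers aminoacyl-tRNA, and eEF2, which moves the ribosome along. Neurons tune these steps through phosphorylation of eIF2 alpha by stress kinases and of the eIF4E-binding proteins by mTORC1. Messenger RNAs of ribosomal proteins and of several elongation factors and eIF3 subunits begin with a run of pyrimidines, the TOP motif, through which mTORC1 controls how well they are translated.

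The start of the messenger RNA is shown because the TOP list is followed through the results below. The windows cover 15 bases before and 15 bases from the RNA start annotated by RefSeq on GRCm38.p6, on the strand of the gene and 5′ to 3′, and the longest unbroken run of C and T is in capitals. Of the 15 factors that rose in both SA and SA:ANH IP libraries (below), 10 had an entry.
Eef1a1: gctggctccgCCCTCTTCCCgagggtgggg
Eif3f: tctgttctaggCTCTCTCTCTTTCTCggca
Eif2s3y: gcggaggccacagccaCTTCCTTCTTTCgt
Eef1b2: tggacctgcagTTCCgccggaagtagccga
Eef2: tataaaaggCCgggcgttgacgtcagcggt
Eif2s2: cacgtaaggttggCTTTactgtacgcctgc
The window of Eef1a1, the main carrier of aminoacyl-tRNA, is chr9:78481710-78481739 on the minus strand and holds a run of 10 pyrimidines. The window of Eif3f, an eIF3 subunit, is chr7:108934400-108934429 on the plus strand and holds the longest run of the 6 shown, 15 bases. Eif2s3y, the Y-linked gene for eIF2 gamma, has a run of 12 in chrY:1010580-1010609 (plus strand). The runs of Eef1b2 (chr1:63176816-63176845, plus strand) and Eif2s2 (chr2:154892892-154892921, minus strand) have 4 bases, and that of Eef2 (chr10:81176616-81176645, plus strand) has 2. A run of at least 8 bases of C or T, counted on the strand of the gene, was present for 3 of those 10 factors, for 9 of the 43 other tested factors with an entry (20.9%), for 28 of 62 ribosomal protein genes (45.2%) and for 13.9% of all 27025 genes with an entry. These counts describe the annotated windows, since an RNA may start at another base, and a short run shows only that the letters are not in this window.

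The 60 libraries held between 19078906 and 27073413 counts. Of the 87 members, 68 passed the filter on low counts when both fractions or Input were fitted and 66 passed in IP, where Eif4a3l2 and Eif4ebp3 did not. The 19 others were Eif4a3l1, Eef1akmt3, Eif4e1b and 16 copies of Eif1ad, and 13 of them had no count in any library. All 6 markers of layer 5 extratelencephalic neurons and 5 of 6 of excitatory neurons were higher in IP than in Input, whereas all markers of astrocytes (6), oligodendrocytes (7), microglia (6) and endothelial or mural cells (6) were lower, with median log2 differences between -3.33 and -5.67. Of 7 inhibitory neuron markers 6 were lower and 1 higher. No pair of libraries within a group was a repeat. A single library lay apart from its group in 11 of 200 sets of values by Dixon's test (below). That test goes gene by gene, so it cannot show a library that deviates across many genes. The ends of the group ranges below may therefore come from the same library for several genes.

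Per kilobase of gene length, transcripts of a few factors stood far above the rest. Gene length here is the deposited value, which can be far below the genomic span (1295 bases for Eif3h, placed at 51649954 to 51728919). Eif1, which guards start-codon choice, reached 838 CPM (read counts scaled to library size) per kb in IP and 562 in Input. Eef1a1 followed with 651 in IP and 618 in Input, and Eif5a, the hypusinated factor that helps ribosomes past difficult sequences, with 534 and 503. Eif4h and Eef2 had 220 and 179 CPM per kb in IP. In CPM, which ignores length, Eef1a1 ranged from 989 to 1388 over the 30 IP libraries and from 1043 to 1199 over the 30 Input libraries, so its spread was wider in IP. All members together took up 1.02% ± 0.011 (SD, n = 6) of the counts in SA IP and 1.03% ± 0.018 in SA:ANH IP, against 0.963% ± 0.0072 in NS IP, 0.961% ± 0.012 in ANH IP and 0.995% ± 0.016 in RES IP. Every SA and SA:ANH library was above the highest NS library (0.970%), and so was every RES library, though only just (lowest 0.9705%). In Input the 5 group means lay between 0.877% and 0.895%.

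Closely related factors were present in unequal amounts. Per kb, Eef1a1 exceeded Eef1a2, its counterpart of mature neurons and muscle, by a geometric mean of 33.7-fold over the IP libraries (range 25.5 to 50.3) and 36.4-fold over Input. Eif4a2 exceeded the helicase Eif4a1 by 3.07-fold in IP and 2.93-fold in Input. The X-linked Eif2s3x exceeded Eif2s3y by 3.09-fold in IP and 3.48-fold in Input. Eif1 exceeded Eif1b by 4.84- to 7.28-fold in the IP libraries and by 3.22- to 3.88-fold in the Input libraries, and these ranges did not overlap. Eif4e exceeded Eif4ebp2, which encodes the 4E-BP that is prominent in brain, by 6.53- to 15.8-fold in IP and 3.77- to 6.12-fold in Input. Of 64 exact two-sided permutation tests of such ratios against NS (8 ratios, 4 subtypes, each fraction), none passed after adjustment. The smallest adjusted p was 0.0691, for Eef1a1 over Eef1a2 in SA:ANH IP (38.1 against 28.1 in NS) and RES IP (37.2), and the unadjusted p there was 0.00216, the smallest that 6 against 6 libraries can give. Even ratios at this floor did not pass, so adjustment over 64 tests left little room for a call. Counting between near-identical copies is uncertain. Eif3j2 resembles Eif3j1, Eif1a resembles Eif1ax, and Eif4a-ps4, a processed pseudogene row with 63.1 CPM in IP and 68.6 in Input, resembles Eif4a1.

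Most factors were relatively more abundant in the pulldown than in bulk cortex. Of 68 members tested across both fractions with group as the design, 40 were higher in IP and 15 lower at an adjusted p under 0.05 (edgeR's quasi-likelihood test, Benjamini-Hochberg over all genes). Over all 18937 genes tested, 32.8% were higher and 42.6% lower. The median log2 difference was 0.11 for the members and -0.08 for all genes, and 14 members had every IP library above every Input library (6.75% of all genes did). Under DESeq2 size factors the split was 35 higher and 19 lower, against 40 and 15. Members over 5 kb in deposited gene length had a median log2 difference of 0.79 and those up to 2 kb one of 0.08. Over all genes these medians were 0.15 and -0.18, and the part of length in the result was not tested.

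**Figure D1:**
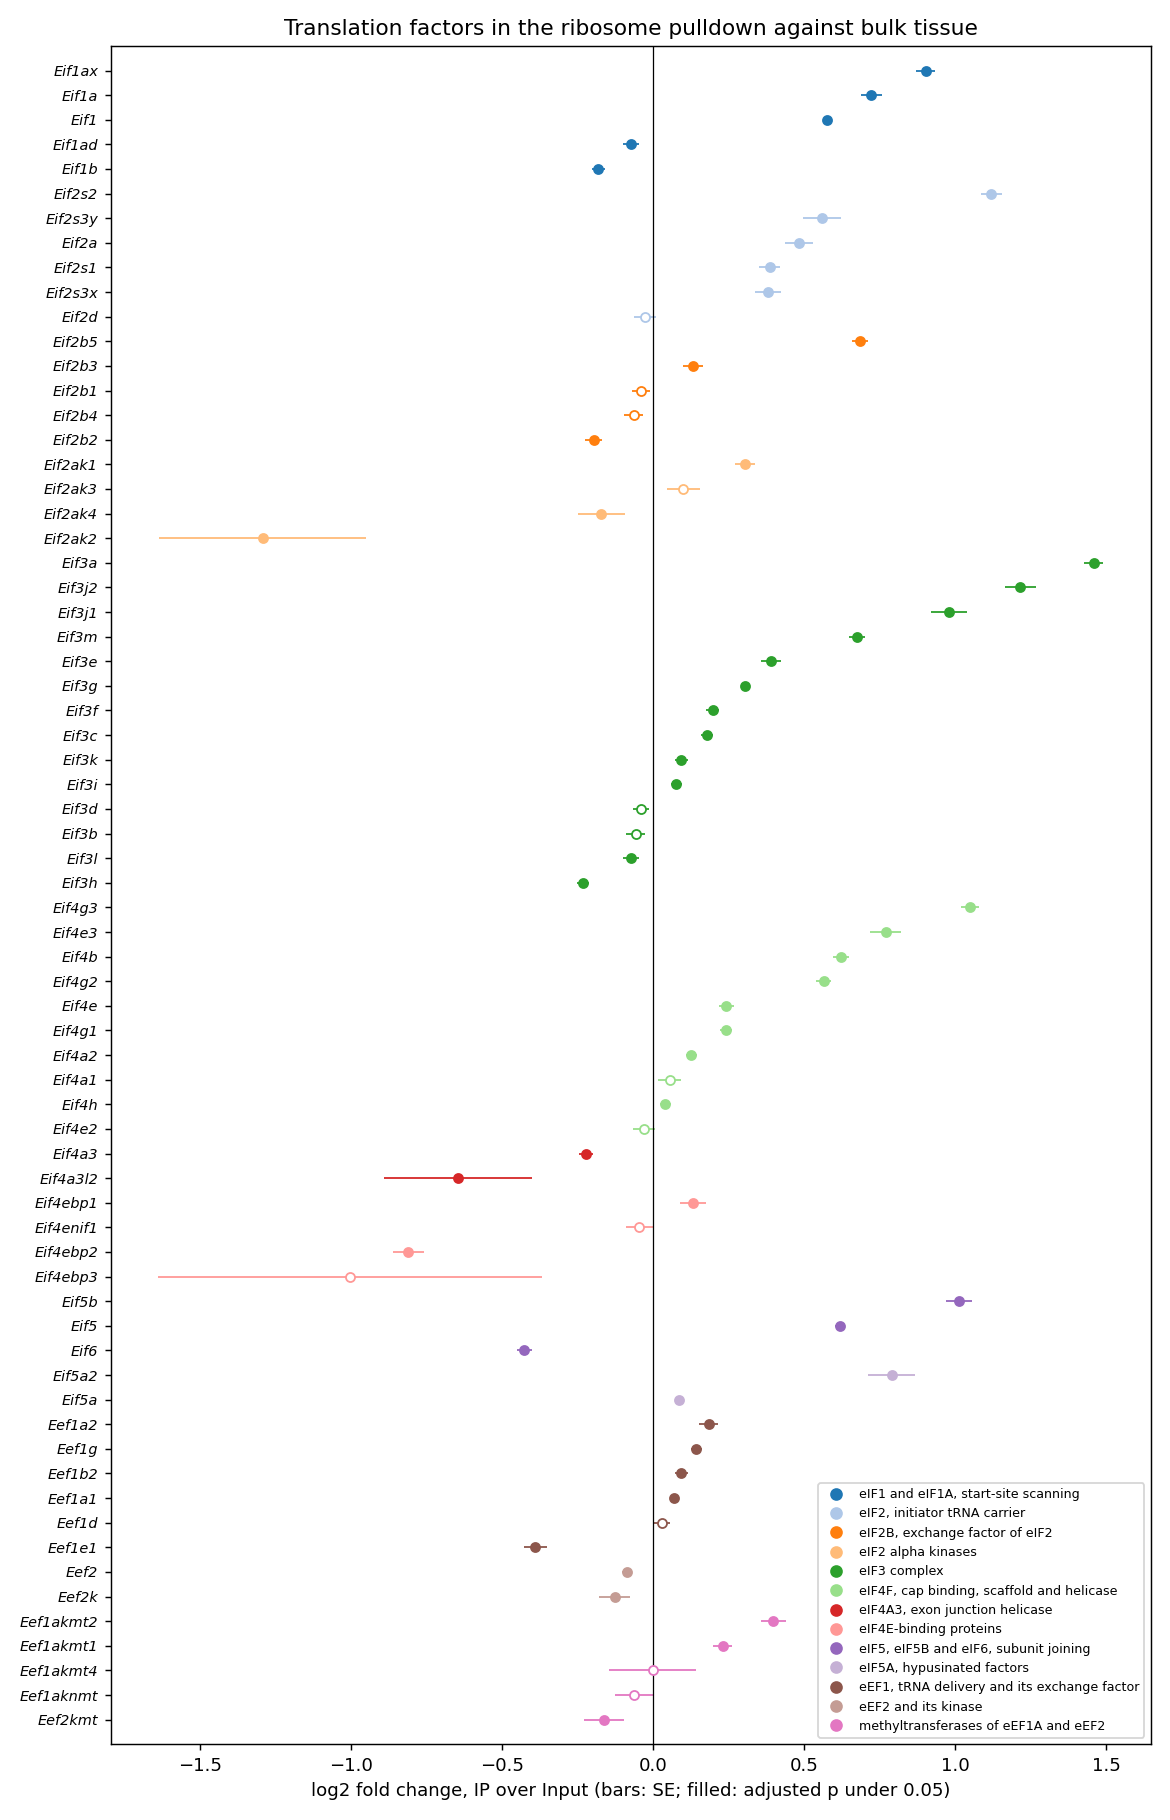
Log2 fold change of IP over Input (x axis, bars are SE) for each of 68 tested factors (y axis), coloured by role, with filled points for an adjusted p under 0.05. Eif3a lies at the right end with 1.46 and Eif2ak2 at the left end with -1.29, and Eif4h, at 0.04, changes sign with DESeq2 size factors (-0.01).

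The eIF3 complex, the large scaffold of the small subunit, held the widest differences. Of 14 subunit genes, 10 were higher in IP and 2 lower. Eif3a ranged from 123 to 165 CPM over the 30 IP libraries and from 41.1 to 66.8 CPM over the 30 Input libraries, and the ranges lay far apart (2.75-fold, log2 1.46 ± 0.03 SE, adjusted p = 1.7e-45). Eif3j2 (log2 1.22 ± 0.05), Eif3j1 (0.98 ± 0.06) and Eif3m (0.67 ± 0.03) also rose. Eif3h went the other way (-0.23 ± 0.02), and Eif3b and Eif3d did not pass (-0.06 and -0.04). The list named for eIF2, the carrier of initiator tRNA, gave 5 of 6 genes higher. It holds Eif2a and Eif2d beside the subunit genes. Eif2s2, which encodes eIF2 beta, ranged from 58.7 to 109 CPM in IP and from 28.3 to 41.3 in Input (2.17-fold, log2 1.12 ± 0.03). Among the eIF4F genes 8 of 10 were higher and none lower. Eif4g3, an eIF4G scaffold, had the widest difference of them (1.05 ± 0.03), against 0.24 ± 0.02 for Eif4g1. Eif5b, the GTPase that joins the subunits, also rose (1.01 ± 0.04). In the start-site group, Eif1ax (0.90 ± 0.03) and Eif1 (0.58 ± 0.01, adjusted p = 5e-44) rose and Eif1b fell (-0.18 ± 0.02).

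Elongation factors differed little between the fractions. Eef1g (log2 0.14 ± 0.02), Eef1b2 (0.09 ± 0.02), Eef1a1 (0.07 ± 0.01) and Eef1a2 (0.18 ± 0.03) were higher in IP, and Eef2 was lower (-0.09 ± 0.02). With DESeq2 size factors in edgeR, Eef1a1 had a log2 difference of 0.02 and did not pass (adjusted p = 0.077). Of the members lower in IP, Eif4ebp2 ranged from 13.9 to 31.4 CPM in IP and from 32.2 to 46.5 CPM in Input, with no overlap (0.57-fold, log2 -0.81 ± 0.05). Eif6, the factor that keeps the ribosomal subunits apart, fell by 0.43 on the log2 scale, and Eef1e1, a component of the tRNA synthetase complex, by 0.39. Eif2ak2, the kinase PKR, had a log2 difference of -1.29 ± 0.34 at group means of at most 1.17 CPM, and Eif4a3l2 one of -0.65 ± 0.24 (adjusted p = 0.015) at group means of at most 0.587 CPM.

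The other genes of the pathway, from lists chosen by function, were also compared between IP and Input. Over all genes, 32.8% were higher and 42.6% lower. Termination and poly(A)-binding partners were higher in 8 of 9 cases, led by Pabpc1 (log2 0.79 ± 0.03), the main cytoplasmic poly(A)-binding protein, and the release factor Etf1 (0.87 ± 0.04). Of 12 kinases and regulators of mTORC1 and MNK signalling, 4 were higher and 6 lower, near the shares over all genes. Rps6kb1, encoding S6 kinase 1, stood at 1.35 ± 0.05. All 10 tested targets and phosphatase subunits of the integrated stress response had negative values and 9 fell, including Atf4 (-0.79 ± 0.03) and Ddit3 (-1.25 ± 0.05), the transcription factors ATF4 and CHOP. Enzymes of hypusine and diphthamide synthesis gave 2 higher and 2 lower of 9, smaller shares than over all genes. In bulk samples, fewer cells of a type and less RNA per cell cannot be told apart.

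Against NS, in each of the 4 IP comparisons most factors did not pass, and those that passed in SA and SA:ANH were mostly higher. In SA IP, 18 of 66 members were higher and 2 lower, where 9.39% of all 16670 genes tested were higher and 7.2% lower. In SA:ANH IP, 22 were higher and 2 lower, against 11.3% and 8.45% of all genes, so that 46 and 42 members did not pass. In ANH IP, 1 was higher and 4 lower (all genes 3.02% and 4.37%), and in RES IP 3 were higher and none lower (2.25% and 2.11%). Medians over the 66 members were 0.06, 0.11, -0.02 and 0.07 on the log2 scale for SA, SA:ANH, ANH and RES, and those of all genes lay between -0.0011 and 0.016. In SA IP 9 members had all 6 libraries above all 6 NS libraries (4.54% of all genes), and in SA:ANH IP 11 did (5.78%). The number that rose in both was 15. These comparisons share the NS libraries, so their likeness is given only by each comparison's own values. In ANH IP, scaling by library totals alone gave 2 higher and 2 lower.

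**Figure D2:**
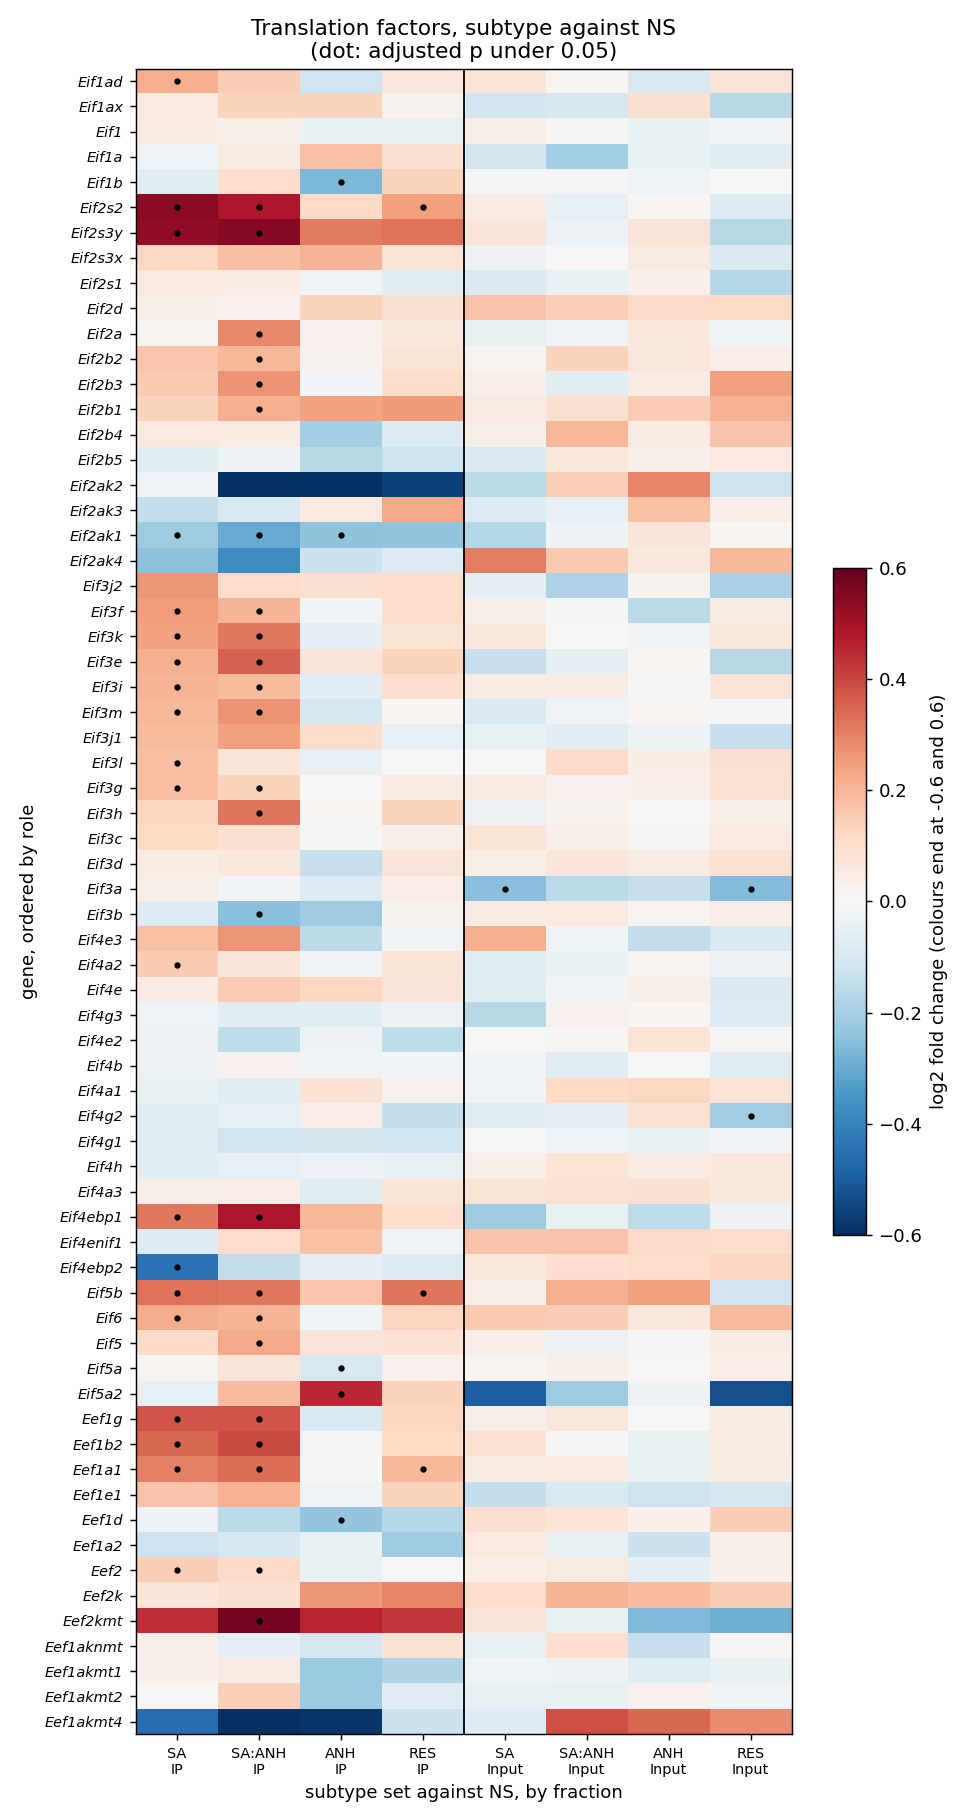
Log2 fold change of each subtype over NS (colour, ending at -0.6 and 0.6) in IP and Input (columns) for 66 factors ordered by role (rows), with a dot where the adjusted p is under 0.05. Dots gather in the SA and SA:ANH IP columns, with 20 and 24, while the Input columns hold 1, 0, 0 and 2.

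The elongation factor eEF1 gave the firmest values. Eef1a1 (ENSMUSG00000037742.15) is placed by the deposited table on chromosome 9, 78385731 to 78396433 on the minus strand. The sources used here leave the build of these positions unstated, and they differ from the GRCm38.p6 positions of the windows above. In NS IP its lowest, median and highest libraries were at 1005, 1041 and 1082 CPM. In SA IP they were at 1165, 1268 and 1342 CPM, in SA:ANH IP at 1223, 1278 and 1388, and in RES IP at 1141, 1181 and 1249, so every library of those 3 groups was above every NS library. In ANH IP they were at 989, 1035 and 1108 CPM and overlapped NS. The fold changes were 1.23 in SA (log2 0.30 ± 0.03 SE, adjusted p = 1e-08), 1.26 in SA:ANH (0.33 ± 0.03, adjusted p = 8.3e-10) and 1.14 in RES (0.19 ± 0.03, adjusted p = 0.00014), and the log2 value in ANH was -0.01 ± 0.03.

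Eef1g, the gamma subunit of the exchange factor that reloads eEF1A with GTP, had 215, 218 and 230 CPM as lowest, median and highest in NS IP. It had 254, 287 and 295 CPM in SA IP and 269, 280 and 294 in SA:ANH IP, all above NS (log2 0.38 ± 0.05 in each). In RES IP, with 218 to 264 CPM, and ANH IP, with 194 to 223, it overlapped NS. Eef1b2, the beta subunit with the exchange activity, ran from 108 to 127 CPM in NS IP, from 142 to 156 in SA IP and from 144 to 166 in SA:ANH IP. Its log2 changes were 0.34 ± 0.05 and 0.39 ± 0.05. Eef1d, the delta subunit, behaved otherwise. It ran from 111 to 142 CPM in NS IP and from 93.2 to 118 in ANH IP (-0.23 ± 0.06, adjusted p = 0.016), where the NS library at 142 stood apart from the next at 122. It gave -0.03 in SA, -0.16 in SA:ANH and -0.17 in RES, none of which passed. Eef1a2 passed in no subtype (-0.12, -0.11, -0.04 and -0.21 in SA, SA:ANH, ANH and RES).

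Eef2 itself ran from 508 to 560 CPM in NS IP, 539 to 618 in SA IP and 546 to 613 in SA:ANH IP, which overlap. It rose by 0.15 ± 0.04 in SA (adjusted p = 0.012) and 0.12 ± 0.04 in SA:ANH (adjusted p = 0.042). The SA value did not pass without the filter on low counts (log2 0.13, adjusted p = 0.0502), and under 5 of the 7 alternative settings the SA:ANH value did not pass (adjusted p 0.058 to 0.15). Its kinase Eef2k, which halts elongation by phosphorylating eEF2, did not pass in any subtype, with log2 values from 0.07 in SA to 0.29 in RES, each with an SE of 0.14. Eef2kmt, the methyltransferase of eEF2, ran from 3.71 to 8.05 CPM in NS IP and from 5.58 to 9.51 in SA:ANH IP (0.58 ± 0.17, adjusted p = 0.012).

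**Figure D3:**
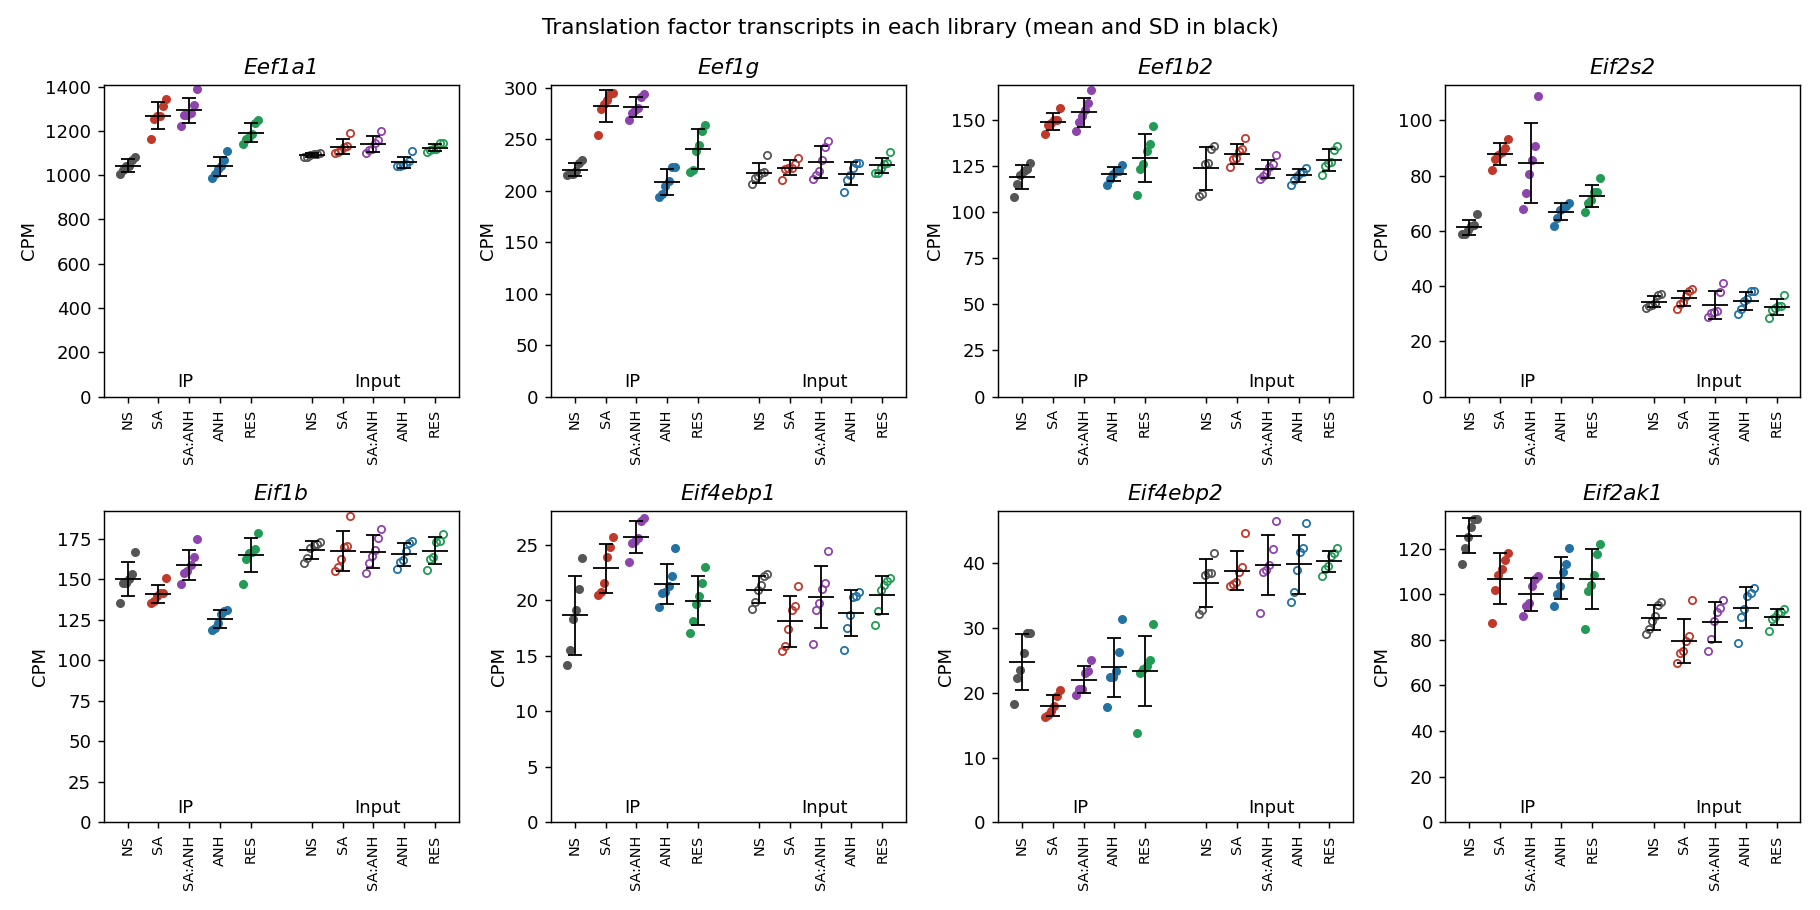
CPM (y axis, from 0) of 8 factors in each of the 60 libraries, by group (x axis), with IP in filled and Input in open circles and the mean and SD in black. Eef1a1, Eef1g and Eef1b2 are higher in every SA and SA:ANH IP library than in every NS IP library, and their Input ranges overlap NS except for Eef1a1 in RES Input (1106 to 1148 CPM against 1082 to 1102).

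The 9 members known from other work as TOP messenger RNAs (Eef1a1, Eef1b2, Eef1d, Eef1g, Eef2, Eif3e, Eif3f, Eif3h and Eif4b) included 6 that rose in SA IP and 7 in SA:ANH IP. In RES IP 1 rose, and in ANH IP none rose and 1 fell. Of all genes, 9.39% were higher in SA, 11.3% in SA:ANH, 2.25% in RES and 3.02% in ANH, where 4.37% were lower. The calls on Eef2 in SA and SA:ANH and on Eif3e in SA were lost under at least 1 alternative setting. The median log2 changes of the 9 members were 0.21, 0.32, 0.12 and -0.02 in SA, SA:ANH, RES and ANH. Those of the other 57 members were 0.05, 0.10, 0.05 and -0.03. Cytosolic ribosomal protein genes, which are TOP messenger RNAs too, gave larger values in the same order. Of 83 tested, 78 were higher in SA, 81 in SA:ANH, 40 in RES and none in ANH, with medians of 0.56, 0.66, 0.23 and -0.04. Eif4b, the helper of the helicase eIF4A, and Eef1d did not move with the other TOP members. Eif4b gave -0.04 in SA and 0.03 in SA:ANH. Eef1d was the lowest of the list in SA:ANH (-0.16) and the 1 that fell in ANH. The lists were drawn up with results of these samples known and are not independent evidence of a direction.

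**Figure D4:**
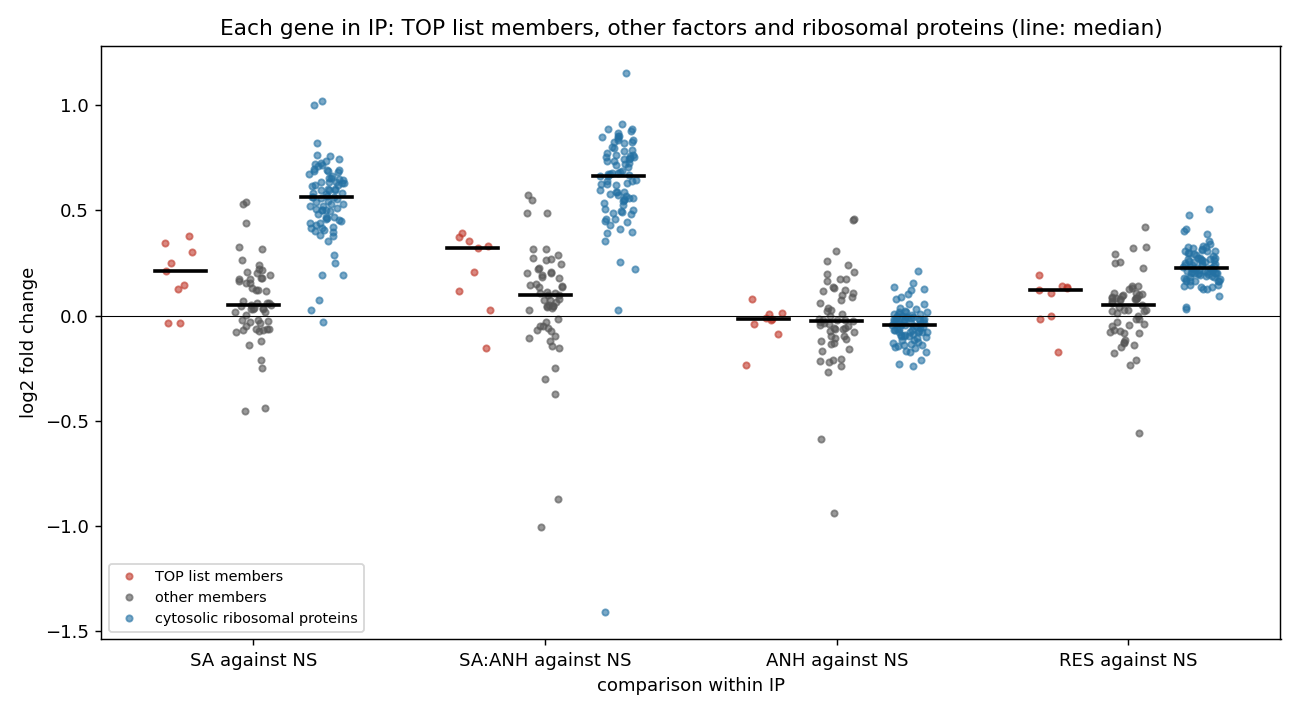
Log2 fold change over NS in IP (y axis) of each gene for 4 subtypes (x axis), for the 9 TOP list members in red, the 57 other factors in grey and 83 ribosomal protein genes in blue, with medians as black lines. The TOP list medians of 0.21 in SA and 0.32 in SA:ANH lie between those of the other factors (0.05 and 0.10) and those of the ribosomal proteins (0.56 and 0.66).

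Among the eIF2 subunit genes, Eif2s2 and Eif2s3y rose in SA and SA:ANH IP. Eif2a, counted in the same list, rose in SA:ANH IP (0.29), a call lost under at least 1 alternative setting. Eif2s2 (deposited position chromosome 2, 154713330 to 154734855, minus strand) had 58.7, 61.1 and 66.1 CPM as lowest, median and highest in NS IP. It had 81.9, 88.0 and 93.4 CPM in SA IP, 67.9, 83.1 and 109 in SA:ANH IP, 67.0, 72.6 and 79.0 in RES IP and 61.8, 67.8 and 70.0 in ANH IP. Every library of SA, SA:ANH and RES was above every NS library, and ANH overlapped NS. The log2 changes were 0.54 ± 0.07 in SA (1.46-fold), 0.49 ± 0.07 in SA:ANH and 0.25 ± 0.07 in RES. Eif2s3y ran from 9.61 to 12.6 CPM in NS IP, 13.1 to 17.4 in SA IP and 11.3 to 21.3 in SA:ANH IP (0.53 ± 0.15 and 0.55 ± 0.15). The X-linked copy Eif2s3x gave 0.12 and 0.18, and the alpha subunit gene Eif2s1 0.06 and 0.04, and neither gene passed. Of the 5 genes of eIF2B, which reloads eIF2 with GTP, none rose in SA IP and 3 rose in SA:ANH IP. These were Eif2b3 (0.27 ± 0.08), Eif2b1 (0.22 ± 0.08) and Eif2b2 (0.20 ± 0.07). Among all genes 9.39% were higher in SA IP and 11.3% in SA:ANH IP. The calls on Eif2b1 and Eif2b2 were lost under at least 1 alternative setting.

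Among the eIF2 alpha kinases, Eif2ak1 was called lower in 3 subtypes. This gene, for the heme-regulated kinase HRI, had 113, 127 and 133 CPM as lowest, median and highest in NS IP. It had 87.1, 110 and 118 CPM in SA IP, 90.4, 99.8 and 108 in SA:ANH IP, 94.8, 107 and 120 in ANH IP and 84.9, 106 and 122 in RES IP. SA:ANH lay wholly below NS and the others overlapped it. The log2 changes were -0.21 ± 0.07 in SA, -0.30 ± 0.07 in SA:ANH and -0.24 ± 0.07 in ANH. RES did not pass, though its median of 106 CPM was near those of SA and ANH. Eif2ak3, Eif2ak4 and Eif2ak2, the kinases PERK, GCN2 and PKR, passed in no subtype against NS. No target of the integrated stress response passed in any of the 4 IP comparisons either, out of 10 tested. The values nearest to the threshold were those of Asns, asparagine synthetase, at -0.12 ± 0.05 in SA:ANH (adjusted p = 0.085) and 0.12 ± 0.05 in SA (adjusted p = 0.099).

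In the eIF3 complex, 7 of 14 genes rose in SA IP, 7 rose and 1 fell in SA:ANH IP, and none passed in ANH or RES. Of all genes, 9.39% were higher and 7.2% lower in SA, and 11.3% and 8.45% in SA:ANH. In ANH 3.02% were higher and 4.37% lower, and in RES 2.25% and 2.11%, so few calls among 14 genes would be usual there. In SA the values of the 7 ran from 0.18 for Eif3g and Eif3l to 0.25 for Eif3f, with Eif3k at 0.24, Eif3e and Eif3i at 0.21 and Eif3m at 0.20. The SA calls on Eif3m, Eif3e and Eif3l, and the SA:ANH call on Eif3g, were lost under at least 1 alternative setting. In SA:ANH, Eif3e rose by 0.36 ± 0.08, Eif3h by 0.32 ± 0.05 and Eif3k by 0.32 ± 0.06. Eif3e ran from 58.7 to 66.7 CPM in NS IP and from 68.0 to 100.2 in SA:ANH IP, without overlap. Eif3h ran from 95.1 to 110 CPM in NS IP, 102 to 116 in SA IP and 115 to 135 in SA:ANH IP, so only the last group stood clear of NS. Eif3b, a subunit that binds Eif3a, fell in SA:ANH IP (-0.25 ± 0.08, adjusted p = 0.015), from 141 to 220 CPM in NS to 132 to 163, and these ranges overlap. Eif3a, Eif3c and Eif3d passed in none of the 4 IP comparisons.

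The eIF4F genes hardly moved against NS. Of 10 tested, 1 rose in SA IP, Eif4a2 (0.16 ± 0.03, adjusted p = 0.0012), and none passed in the other subtypes. That count is near the 9.39% of all genes that were higher in SA IP. Eif4e gave 0.05, 0.15, 0.12 and 0.08 in SA, SA:ANH, ANH and RES, each with an SE of 0.06. The scaffolds Eif4g1, Eif4g2 and Eif4g3 lay between -0.14 and 0.04. Their inhibitors did change. Eif4ebp1 ran from 14.1 to 23.8 CPM in NS IP, 20.5 to 25.7 in SA IP and 23.5 to 27.4 in SA:ANH IP, and rose by 0.32 ± 0.10 (adjusted p = 0.032) and 0.49 ± 0.10 (adjusted p = 0.00064). The SA value did not pass without the filter on low counts (adjusted p = 0.076) or with only the 12 libraries compared (adjusted p = 0.10). Eif4ebp2 ran from 18.3 to 29.3 CPM in NS IP and from 16.3 to 20.4 in SA IP, and fell (log2 -0.44 ± 0.14, adjusted p = 0.022). Its values in SA:ANH, ANH and RES were -0.15, -0.06 and -0.08, and did not pass.

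Of the 3 factors Eif5, Eif5b and Eif6, which act on subunit joining or keep the subunits apart, 2 rose in SA IP and 3 in SA:ANH IP. The shares of all genes that were higher were 9.39% and 11.3%. Eif5b rose by 0.33 ± 0.09 in SA, 0.32 ± 0.09 in SA:ANH and 0.32 ± 0.09 in RES, from 28.4 to 37.6 CPM in NS IP to 35.9 to 46.3 in SA IP and 34.9 to 48.0 in RES IP, with overlap in each. With only the 12 libraries compared, the RES value did not pass (adjusted p = 0.060). Eif6 rose by 0.22 in SA and 0.20 in SA:ANH, and Eif5, which triggers GTP hydrolysis by eIF2, by 0.23 ± 0.04 in SA:ANH, while its SA value of 0.12 ± 0.04 did not pass. In ANH IP, 1 of 66 members was higher and 4 were lower, a total near the share of all genes (3.02% and 4.37%). Of these, Eif2ak1 also fell in SA and SA:ANH. Eif1b fell from 136 to 167 CPM in NS to 119 to 131 in ANH, with no overlap (0.83-fold, log2 -0.27 ± 0.05, adjusted p = 0.00038), and Eif1 gave -0.04 ± 0.03. Eif5a fell by 0.10 on the log2 scale, from 760 to 775 CPM in NS to 691 to 756 in ANH, whereas its rarer relative Eif5a2 rose by 0.45 ± 0.13, from 11.1 to 16.2 CPM to 14.6 to 23.4. The 3 ANH calls on Eif5a, Eif5a2 and Eif2ak1 did not pass without the filter on low counts, and those on Eif1b and Eef1d did under every alternative run.

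Around the members, the other lists differed in how many genes passed against NS in IP. Of 9 hypusine and diphthamide genes, 3 rose in SA and 1 in SA:ANH. Of 8 other initiation helpers, 3 rose in each, with list values up to 0.63 and 0.57. Of 9 termination and poly(A)-binding partners, 1 and 2 rose. Over all genes, 9.39% were higher in SA and 11.3% in SA:ANH. Only genes with the smallest adjusted p are named. Pabpc1 rose by 0.23 ± 0.07 in SA and 0.37 ± 0.07 in SA:ANH, and Paip2b, an inhibitor of poly(A)-binding protein, rose by 0.54 ± 0.10 in ANH and 0.28 ± 0.10 in SA:ANH. Of the 12 mTORC1 and MNK genes none passed in SA or ANH, 1 rose in SA:ANH and 1 fell in RES. That gene was Deptor, an inhibitor of mTOR, at 0.35 ± 0.11 and -0.42 ± 0.11. Dhps and Dohh, which together make hypusine on eIF5A, rose by 0.24 ± 0.06 and 0.20 ± 0.05 in SA, and Dohh gave 0.20 ± 0.05 in SA:ANH and -0.17 ± 0.05 in ANH. Denr, a helper of reinitiation and tRNA recycling, rose by 0.33 ± 0.06 in SA and 0.40 ± 0.06 in SA:ANH.

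In bulk cortex the factors showed almost no difference from NS. In SA Input 1 of 68 fell, Eif3a (-0.25 ± 0.07, adjusted p = 0.047), and in RES Input 2 did, Eif3a (-0.26 ± 0.07) and Eif4g2 (-0.21 ± 0.05). Of all genes, 1.6% and 1.27% fell and 2.83% and 3.23% passed in either direction. The SA value of Eif3a did not pass without the filter, with the replicate block or with only the 12 libraries compared (adjusted p 0.053 to 0.066). Eif3a ran from 54.0 to 66.8 CPM in NS Input and from 41.1 to 54.0 in RES Input, so all RES libraries were below all NS libraries. None passed with edgeR in SA:ANH Input (5.65% of all genes) or ANH Input (2.62%), with 13 and 5 members under an unadjusted p of 0.05. DESeq2 called 1 in each, and limma voom 0 in SA:ANH Input and 1 in ANH Input. Eef1a1 gave 0.05, 0.06, -0.04 and 0.05 in SA, SA:ANH, ANH and RES Input, each with an SE of 0.02. Its RES Input libraries, at 1106 to 1148 CPM, were all above the NS Input libraries, at 1082 to 1102, but the difference did not pass (adjusted p = 0.29).

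The change in IP was then compared with the change in Input by an interaction term over all 60 libraries. It passed for 9 of 68 members in SA (9.05% of all genes), 17 in SA:ANH (15.2%), 2 in ANH (3.62%) and 3 in RES (2.69%). In SA, 8 of the 9 were positive (all genes 4.49% positive, 4.55% negative), with Eef1a1 at 0.24 ± 0.04 (adjusted p = 1.4e-05), Eef1g at 0.32 ± 0.06, Eif2s2 at 0.47 ± 0.11 and Eif4ebp1 at 0.51 ± 0.14. Eif4ebp2 was the negative one (-0.54 ± 0.16). In SA:ANH 13 were positive and 4 negative (7.14% and 8.06%), and the smallest adjusted p belonged to Eef1a1 (0.25 ± 0.04, 2.5e-06) and Eef1b2 (0.37 ± 0.07, 4.5e-05). In RES the term for Eef1a1 was 0.15 ± 0.04 and that for Eef1d -0.32 ± 0.08, and in ANH that for Eif1b was -0.24 ± 0.07, which did not pass with library totals (adjusted p = 0.080).

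Set against each other in IP, the subtypes separated SA and SA:ANH from ANH most. SA:ANH against ANH gave 25 members higher and none lower, where 10.8% of all genes were higher and 7.03% lower. SA against ANH gave 21 and 2 (12.8% and 10.2%). Among the rises were Eef1g (0.47 ± 0.05 in each), Eif2s2 (0.42 ± 0.07 in SA against ANH), Eif4e3 (0.42 ± 0.10 in SA:ANH against ANH) and Eef1a1 (0.35 ± 0.03 and 0.32 ± 0.03). The 2 lower in SA than in ANH were Eif5a2 (-0.50 ± 0.13) and Eif4ebp2 (-0.38 ± 0.14). Against RES, SA had 7 higher and 2 lower (6.83% and 4.8%) and SA:ANH 10 and 1 (8.21% and 5.61%), led by Eif2s2 (0.29 ± 0.07) and Eif4ebp1 (0.38 ± 0.10). In SA, Eif1b (-0.21 ± 0.05) and Eif2ak3 (-0.37 ± 0.12) were lower than in RES. ANH against RES gave 1 higher and 8 lower (3.78% and 5.43%), with Eif1b (-0.41 ± 0.05) and Eef1a1 (-0.21 ± 0.03) the firmest. SA:ANH and SA differed in 2 members, Eif3h (0.19 ± 0.05) and Eif1b (0.18 ± 0.05), where 9.53% of all genes passed.

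In Input, SA and RES differed in no member by edgeR, limma voom or DESeq2 (1.1% of all genes by edgeR), with 9 members under an unadjusted p of 0.05. SA:ANH and RES differed in 1 (0.693% of all genes), Eif2b3 (-0.32 ± 0.08), which did not pass with only the 12 libraries compared (adjusted p = 0.12). ANH and RES differed in 5 (4.22% of all genes). These were Eif4g2 (0.30 ± 0.05), Eif5b (0.36 ± 0.10), Eif1ax (0.26 ± 0.07), Eif3f (-0.20 ± 0.05) and Eef1a1 (-0.09 ± 0.02). The values of Eif5b and Eef1a1 did not pass without the filter (adjusted p = 0.072 and 0.080).

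Other measures moved with the groups, and their part in the values above was not tested. The summed level of 7 oligodendrocyte markers ran from 255 to 305 CPM in NS IP, 215 to 235 in SA IP and 150 to 180 in SA:ANH IP, but from 694 to 734 in ANH IP and 1014 to 1139 in RES IP. Of these 7 genes, 5 fell in SA, 7 fell in SA:ANH and 7 rose in ANH and in RES. In Input the same sum had medians of 2784 CPM in NS, 3355 in SA, 3036 in SA:ANH, 4682 in ANH and 4028 in RES, where the factors hardly differed. The 6 layer 5 extratelencephalic markers all fell in SA:ANH and in ANH IP, whose sums had medians of 782 and 940 CPM against 1327 in NS, and in SA 4 rose and 2 fell (median sum 1413). In SA IP 4 of 6 astrocyte markers were lower and 1 higher (median log2 -0.75), and 4 of 7 inhibitory (-0.60) and 3 of 6 excitatory neuron markers (-0.23) were lower. In SA:ANH IP 2 of 6 astrocyte markers were lower (median -0.38), 3 of 7 inhibitory markers were lower and 1 higher (-0.29), and 2 of 6 excitatory markers were higher and 2 lower (0.06). Mitochondrially encoded transcripts were 0.0198% of counts in NS IP and 0.0409% in SA IP as medians. Deposited gene length also ran with the change. Members up to 2 kb had medians of 0.17 in SA IP and 0.20 in SA:ANH IP and those over 5 kb -0.03 and -0.02, where all genes gave 0.11 and 0.14, and -0.02 and -0.04.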

How the data were processed

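RNA was sequenced from 30 IP and 30 Input libraries. Per the labels' protocols, libraries were made with SMART-Seq v4 and TruSeq kits after pulldown with an antibody against GFP. The build mm10 and the tools Bowtie2 2.2.3, TopHat2 2.0.13 and Trimmomatic 0.32 are listed, without roles, in the submitters' processing notes. How reads were counted, split between copies and assigned to strands was not stated there. The authors deposited expected counts per gene, of which 88.4% were whole numbers (within 1e-06), and they were rounded before testing. No molecular identifiers were used, so repeated reads are not separate molecules.

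Counts were fitted with edgeR 4.0.16 (quasi-likelihood test, R 4.3.3) with TMM factors, a filter at a minimum count of 10 and Benjamini-Hochberg adjustment over all genes tested, threshold 0.05. IP, Input and both fractions were fitted separately, each with all their groups. CPM values share 1 scale, that of the fit of both fractions. SE values are those of log2 fold changes. Alternatives were DESeq2 1.42.0 size factors, library totals, no filter, a replicate block, limma 3.58.1 voom with quality weights, DESeq2, and only the 12 libraries compared. The quasi-likelihood test was tried on simulated counts for SA against NS in IP only. Every pair of libraries of a group had a chi-square per degree of freedom of at least 7.03, so none was a repeat within a group.

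Members were chosen by name, and the gene lists with earlier results of these data known. Named were a fixed set of members and, per comparison, the 4 largest rises and falls among members that passed with at least 10 CPM and the 2 smallest adjusted p. From the other lists, genes with the 2 smallest adjusted p were named. A few members outside this rule (Eif4b, Eif6, Eef1d, Eef2kmt, Eif4h and others of 1 role) were named after their values were seen.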

Additional observations from a re-analysis of the deposited data

Results flagged for a closer look

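The difference between the change in IP and the change in Input, both against NS, passed the interaction test of edgeR (adjusted p under 0.05) for these members, given as log2 IP minus Input. In SA it was 0.51 for Eif4ebp1, 0.47 for Eif2s2, 0.33 for Eif3e, 0.32 for Eef1g, 0.27 for Eif3m, 0.24 for Eef1a1, 0.23 for Eef1b2, 0.20 for Eif4a2 and -0.54 for Eif4ebp2. In SA:ANH it was 0.59 for Eef2kmt, 0.56 for Eif2s3y, 0.51 for Eif2s2, 0.51 for Eif4ebp1, 0.39 for Eif3e, 0.37 for Eef1b2, 0.31 for Eif2b3, 0.29 for Eif3k, 0.28 for Eef1g, 0.27 for Eif3h, 0.27 for Eif3m, 0.25 for Eef1a1 and 0.24 for Eif5. There it was -0.16 for Eif4h, -0.26 for Eef1d, -0.30 for Eif2ak1 and -0.34 for Eif3b. In ANH it was 0.73 for Eef2kmt and -0.24 for Eif1b, and in RES 0.72 for Eef2kmt, 0.15 for Eef1a1 and -0.32 for Eef1d. Every alternative kept the 9 of SA, while at least 1 lost Eef2kmt in SA:ANH, ANH and RES, Eif1b in ANH, and Eif2s3y, Eif4h, Eef1d and Eif2ak1 in SA:ANH. Eef2kmt lies under 11 CPM in every library.

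A single library lay apart from the other 5 of its group for 11 of 200 sets of 6 values (20 genes in 10 groups), by Dixon's test, where chance gives about 1 in 20. Eef1a1 was at 1191 CPM in SA Input replicate 6 and 1107 in ANH Input replicate 6. Eef2 was at 570 CPM in SA Input replicate 5 and 641 in RES Input replicate 4, where Eif1 was at 774. Eif3b was at 155 CPM in SA:ANH Input replicate 6 and 154 in NS Input replicate 3. Eif4ebp2 was at 44.7 CPM in SA Input replicate 6 and Eif5a2 at 5.00 in SA Input replicate 3. In IP, Eef1d was at 142 CPM in NS replicate 2 and Eif4g3 at 89.5 in SA:ANH replicate 4.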

How the results depend on the processing

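Of 149 counts of changed members recomputed under the alternatives, 126 stayed within 1.5 times. ANH against NS in IP gave 2 without the filter and 8 with DESeq2 (5 reported), and RES against NS in IP gave 5 with the replicate block, with limma voom and with DESeq2 (3 reported). In Input, SA against NS gave 0 without the filter, with the block and with only 12 libraries (1 reported), SA:ANH gave 1 with DESeq2 (0), ANH gave 1 with RLE factors, library totals, limma voom and DESeq2 (0), and RES gave 4 with limma voom and 5 with DESeq2 (2). The interaction gave 1 in ANH with library totals and without the filter (2), and in RES 5 with library totals and 6 with DESeq2 (3). SA against RES in IP gave 5 without the filter and with only 12 libraries (9). In Input, SA:ANH against RES gave 0 with only 12 libraries (1) and ANH against RES gave 3 without the filter (5). For the members named by the rule, 2028 of 2075 alternatives kept direction and side of the threshold, 35 lost the call, 12 gained one and none reversed. Eif4h, named outside the rule, went from 0.04 to -0.01 in IP against Input with RLE factors and with DESeq2. All alternatives kept 44 of 55 calls of IP against Input, 14 of 20 in SA, 19 of 24 in SA:ANH, 2 of 5 in ANH and 2 of 3 in RES against NS in IP. Library totals raised the share of higher among all changed genes of the interaction from 48.9% to 65.3% in ANH and from 52.4% to 71.7% in RES. Replicate numbers were not shown to pair libraries: the correlation of same-numbered deviations was at most 0.0881 in IP and 0.122 in Input. A replicate block gave 21 members in SA and 26 in SA:ANH IP. Depth limits members such as Eif2ak2 (group means up to 1.17 CPM), whose SE against NS in IP was 0.93 or more.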
